A study of Rattus norvegicus with 18 samples.

Results

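The carnitine shuttle carries long-chain fatty acids into mitochondria, and malonyl-CoA restrains it. Both were examined here through 8 genes, taken as the probe sets whose only gene symbol is Cpt1a, Cpt1b, Cpt2, Slc25a20, Crat, Slc22a5, Mlycd or Acacb. Of these, 7 were measured, each by 1 probe set, among 12749 genes kept on the array. Slc22a5, the plasma membrane carnitine transporter, shared its only probe set with Slc22a4, so it had no value of its own. All 7 measured genes passed the filter on low values. The RNA was from 18 Sprague-Dawley rats, all adult females of the second filial generation, and from 1 muscle of the hindlimb, the fast extensor digitorum longus. The labels cross 2 diets, each chow or high-fat: that of the founding grandfather, and that of the female herself for 12 weeks. The females' high-fat diet supplied 42/45% of energy as fat. Groups are named by the grandfather's diet, then the female's own: high-fat/high-fat (4 animals), high-fat/chow (4), chow/high-fat (5) and chow/chow (5). Descendants of high-fat-fed founders are called the high-fat lineage and those of chow-fed founders the chow lineage. The labels do not give how many founders each lineage had, nor the animals' ages, and each animal was counted as independent.

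In this shuttle carnitine palmitoyltransferase 1 (Cpt1) at the outer mitochondrial membrane joins a long-chain acyl group to carnitine, the carrier Slc25a20 exchanges the acylcarnitine across the inner membrane, and Cpt2 returns the acyl group to coenzyme A inside. Malonyl-CoA binds and inhibits Cpt1. In muscle it is made by the mitochondria-associated acetyl-CoA carboxylase Acacb and removed by the decarboxylase Mlycd, and their balance is known to limit how much fatty acid enters. Cpt1b is the muscle form of the transferase and Cpt1a the liver form, which is also found in many other cells; Crat, the carnitine acetyltransferase, moves acetyl and other short acyl groups onto carnitine and is abundant in muscle.

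Fatty acids act on many of these genes through PPAR receptors, which pair with retinoid X receptors on a direct repeat of AGGTCA with 1 base between the copies. The RefSeq promoter table (build GRCr8, 250 bases before to 50 after each gene's start) held 7 of the 8 genes, all but Cpt1b. Both strands were searched for that repeat, AGGTCA, any base, and AGGTCA again, with at most 2 mismatches outside the free base; it contains the single copy AGGTCA, which was searched too. Matches were found at Acacb, Crat and Slc25a20, 3 of the 7 promoters, while 3.77% of all 33469 promoters of the same length held one. Each of the 3 had 2 mismatches, the most allowed. With at most 1 mismatch 0.439% of all promoters held a match, and none of the 7 did. No match at all was found within this window at Mlycd, Cpt1a, Cpt2 or Slc22a5. An exact AGGTCA on either strand was present at Acacb alone of the 7, and in 16.2% of all promoters. The 3 promoters are shown because they hold a match, from 250 bases before the start to the first 30 transcribed bases, 5′ to 3′ along the gene, with the match in capitals.

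Acacb, chr12:48138185-48138464, minus strand: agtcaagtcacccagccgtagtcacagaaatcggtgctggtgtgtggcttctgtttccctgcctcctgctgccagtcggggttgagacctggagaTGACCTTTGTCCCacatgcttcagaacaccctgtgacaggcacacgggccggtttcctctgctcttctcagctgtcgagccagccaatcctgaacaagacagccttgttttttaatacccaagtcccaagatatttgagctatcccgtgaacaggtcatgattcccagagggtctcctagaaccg

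Crat, chr3:34087070-34087349, minus strand: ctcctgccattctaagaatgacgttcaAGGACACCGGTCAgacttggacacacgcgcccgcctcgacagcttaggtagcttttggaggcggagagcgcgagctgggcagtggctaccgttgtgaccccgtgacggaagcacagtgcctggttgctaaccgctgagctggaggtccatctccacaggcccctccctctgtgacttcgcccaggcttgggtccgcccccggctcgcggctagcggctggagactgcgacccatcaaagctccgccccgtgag

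Slc25a20, chr8:118243323-118243602, plus strand: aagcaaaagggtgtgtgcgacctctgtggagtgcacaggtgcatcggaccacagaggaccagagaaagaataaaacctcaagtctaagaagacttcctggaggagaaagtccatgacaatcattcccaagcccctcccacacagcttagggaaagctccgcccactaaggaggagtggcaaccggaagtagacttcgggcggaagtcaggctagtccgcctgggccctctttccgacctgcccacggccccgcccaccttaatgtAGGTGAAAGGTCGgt

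At Acacb the match lay on the strand opposite to the gene, at bases -155 to -143 counted from the start (the start is base 1), and read GGGACAAAGGTCA on its own strand. The Crat match lay on the gene's strand at bases -223 to -211 and read AGGACACCGGTCA. The match at Slc25a20 lay within the first transcribed bases, 16 to 28, and read AGGTGAAAGGTCG. A match in letters is a description and no measure of binding.

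The females' own high-fat diet came with higher levels of all 7 measured genes, averaged over both lineages, as 48.4% of all genes were, but none passed the threshold of an adjusted p under 0.05. Differences are given as high-fat minus chow on the log2 scale of normalised intensity plus 16; they ran from 0.17 for Acacb to 0.49 for Mlycd, with a median of 0.21, against a median of -0.0028 over all 12749 genes. By limma 2 of all genes passed, or 0.0157%, and 0 of the 7. At an unadjusted p under 0.05, all 7 were higher, against 3.29% of all genes. Since the genes were chosen with earlier results of these data in view, this count describes them and is no independent test. Taken alone, the high-fat lineage also had all 7 higher (background 49.6%), 5 of them at an unadjusted p under 0.05 (background 4.84%). The chow lineage had all 7 higher (background 48.6%), and 7 at that level (background 2.49%). Within either lineage limma called 0 genes of the whole array (0% in each). At an unadjusted p under 0.05 in either direction there were 1174 genes in the high-fat lineage (9.21%) and 611 in the chow lineage (4.79%).

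**Figure D1:**
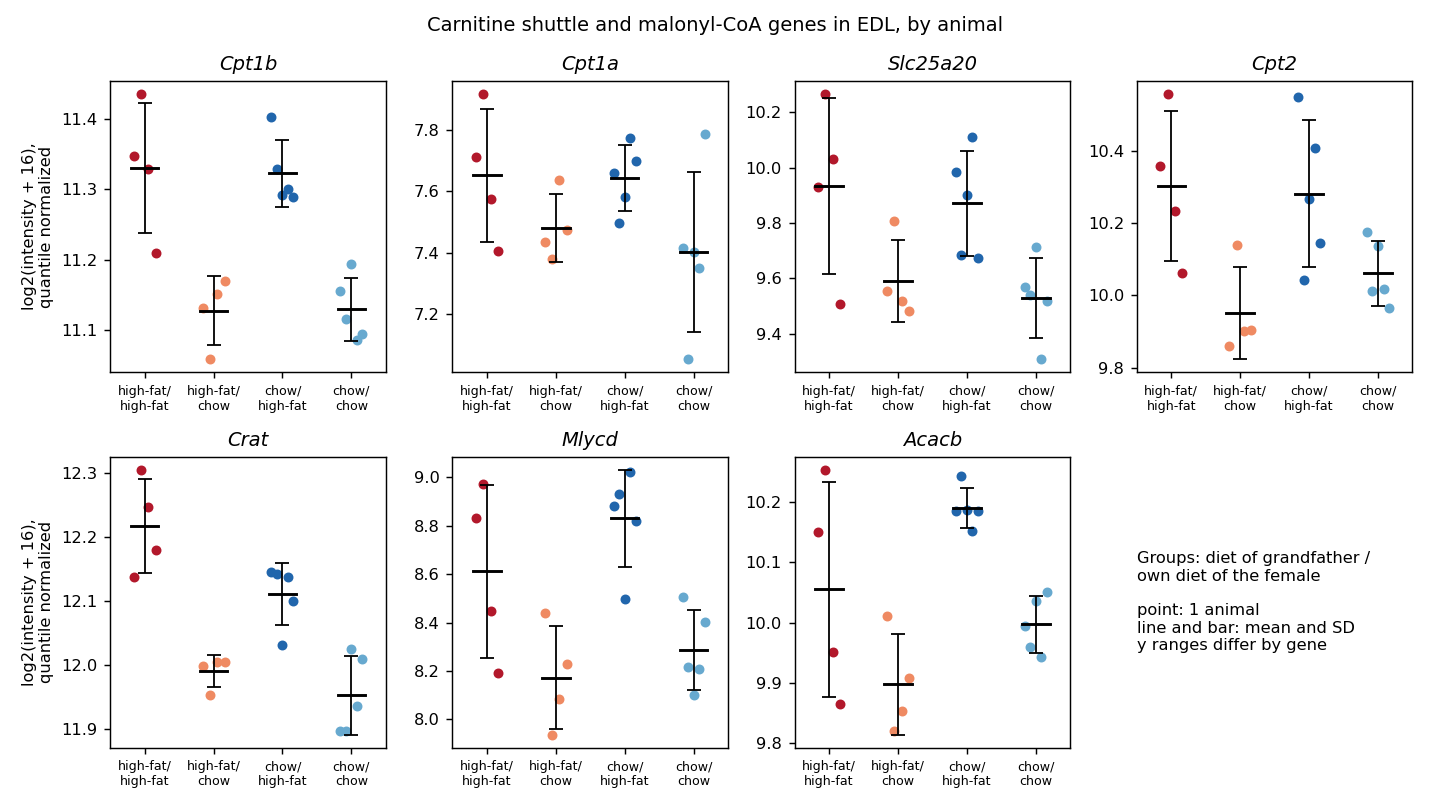
Normalised log2 level of each measured gene (vertical axis, log2(intensity + 16)) in each of the 18 animals, by group named as grandfather's diet/own diet; points are animals, the line and bar are the group mean and SD. The high-fat-fed group has the higher mean in both lineages for all 7 genes, and for Cpt1b and Crat its animals do not overlap the chow-fed ones.

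Mlycd (probe set 10808296), which removes malonyl-CoA, differed most. Its log2 level was 8.83, 8.97, 8.45 and 8.19 in high-fat/high-fat animals, against 8.44, 7.94, 8.09 and 8.23 in high-fat/chow animals. Chow-lineage animals had 8.88, 8.93, 8.50, 9.02 and 8.82 with the high-fat diet and 8.51, 8.21, 8.10, 8.21 and 8.40 with chow. The chow-lineage groups overlapped through 1 high-fat-fed female. Of the 4 high-fat/high-fat females 3 lay above every high-fat/chow female, 1 of them barely, and the lowest lay among them. The difference averaged over lineages was 0.49 (SE 0.10, 95% confidence interval 0.28 to 0.70, limma adjusted p = 0.0986), or 1.41-fold. Each of the 9 high-fat-fed animals exceeded its lineage's chow-fed mean. By lineage it was 0.44 (SE 0.15) in the high-fat and 0.54 (SE 0.14) in the chow lineage, with adjusted p = 0.416 and 0.704 from limma.

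Acacb (10762792), the carboxylase that makes malonyl-CoA next to Cpt1, was higher as well, by a smaller amount. High-fat/high-fat animals had log2 levels of 10.15, 10.25, 9.95 and 9.87, against 10.01, 9.82, 9.85 and 9.91 in high-fat/chow animals. In their chow-lineage counterparts it was 10.18, 10.24, 10.19, 10.15 and 10.18 with the high-fat diet and 9.99, 9.96, 10.04, 9.94 and 10.05 with chow. After normalization the chow-lineage groups did not overlap, and the chow/high-fat animals were close to one another. In the high-fat/high-fat group 2 animals were high and 2 lay within the range of chow-fed animals. Its average difference was 0.17 (SE 0.050, 95% confidence interval 0.069 to 0.28, limma adjusted p = 0.368). It was 0.16 (SE 0.075) in the high-fat lineage and 0.19 (SE 0.067) in the chow lineage. Without high-fat/high-fat replicate 2 it was 0.091 in the high-fat lineage. Without normalization between arrays it was 0.30 in the high-fat and 0.051 in the chow lineage, beside medians over all genes of 0.11 and -0.13. Enzymes of both malonyl-CoA synthesis and decay thus had positive differences between the same groups. For Acacb 8 of the 9 high-fat-fed animals exceeded their lineage's chow-fed mean, and for Mlycd 9 of 9. The 95% confidence interval for Mlycd begins where that for Acacb ends, at 0.28, and the difference between both genes was not tested.

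Cpt1b (10906302), the muscle entry enzyme, had a small difference with little spread. Levels were 11.35, 11.44, 11.33 and 11.21 in high-fat/high-fat animals, against 11.13, 11.06, 11.15 and 11.17 in high-fat/chow animals. Chow-lineage values were 11.40, 11.33, 11.29, 11.30 and 11.29 with the high-fat diet and 11.16, 11.12, 11.19, 11.09 and 11.09 with chow. After normalization every high-fat-fed animal lay above every chow-fed animal of both lineages. That pattern held for 3 of all 12749 genes (0.0235%), 2 of them Cpt1b and Crat. The average difference was 0.20 (SE 0.040, 95% confidence interval 0.11 to 0.28, limma adjusted p = 0.0986), 1.15-fold, and in normalised values was, in the high-fat lineage, 0.20 (SE 0.060) and, in the chow lineage, 0.19 (SE 0.054). Without normalization between arrays these were 0.31 and 0.061, with the same shifts of all genes as given for Acacb. Cpt1a (10712657), the liver form, was more scattered. The log2 values were 7.71, 7.92, 7.57 and 7.40 in high-fat/high-fat animals, against 7.43, 7.38, 7.64 and 7.47 in high-fat/chow animals. For the chow lineage they were 7.66, 7.49, 7.58, 7.77 and 7.70 with the high-fat diet and 7.41, 7.05, 7.40, 7.35 and 7.79 with chow. Its groups overlapped in both lineages, and the chow/chow group alone spanned nearly the whole range. The average difference was 0.21 (SE 0.083, 95% confidence interval 0.032 to 0.38, limma adjusted p = 0.717).

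Crat (10844183) carried the smallest unadjusted p of the 7. On the log2 scale it stood at 12.14, 12.31, 12.25 and 12.18 in high-fat/high-fat animals, against 12.00, 11.95, 12.01 and 12.01 in high-fat/chow animals. The chow lineage gave 12.15, 12.14, 12.03, 12.14 and 12.10 with the high-fat diet and 11.90, 11.90, 12.02, 11.94 and 12.01 with chow. After normalization the groups did not overlap in either lineage, although the lowest chow/high-fat animal and the highest chow/chow animal were nearly level. Within a lineage, every high-fat-fed animal lay above every chow-fed one for 2 of the 7 genes in the high-fat lineage (Cpt1b and Crat; background 2.06%) and for 3 in the chow lineage (these and Acacb; background 0.416%). Both counts are of normalised values. In deposited intensities the chow-lineage groups overlapped for all 3. Crat ran 3991 to 4675 with the high-fat diet and 3999 to 4258 with chow. Cpt1b ran 2154 to 2662 and 2136 to 2448, and Acacb 964 to 1205 and 996 to 1090. In the high-fat lineage the deposited values overlapped for Cpt1b and not for Crat. Deposited values include the shifts of all genes given for Acacb. The average difference of Crat was 0.19 (SE 0.039, 95% confidence interval 0.11 to 0.27, limma adjusted p = 0.0986). Crat, Cpt1b and Mlycd share one adjusted p because the Benjamini-Hochberg adjustment gives a gene the value of a later rank where that is smaller; they stood 10, 11 and 14 among 12749 genes ordered by p.

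**Figure D2:**
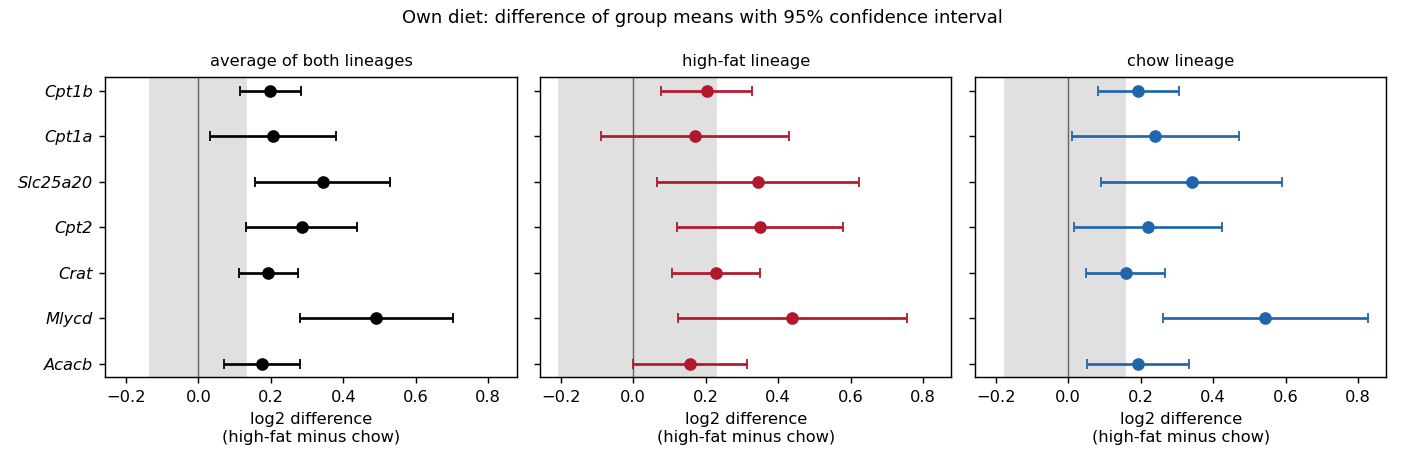
Log2 difference with the own high-fat diet (horizontal axis, high-fat minus chow) for each gene, with its 95% confidence interval, averaged over lineages and in each lineage; the grey band spans the 5th to 95th percentile of all 12749 genes. All 7 averages lie to the right of the band, from 0.17 for Acacb to 0.49 for Mlycd, and none passed the adjusted threshold. In the chow lineage all 7 lie to the right of its band, Crat just outside; in the high-fat lineage Cpt1a, Cpt1b, Acacb and, at its edge, Crat lie inside, and the other 3 outside.

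The inner-membrane steps had larger differences than Cpt1b, Acacb and Crat, and wider spread. Slc25a20 (10913218), the carnitine-acylcarnitine carrier, was higher on average by 0.34 (SE 0.090, 95% confidence interval 0.16 to 0.53, limma adjusted p = 0.335). The carrier stood at 9.93, 10.27, 10.03 and 9.51 in high-fat/high-fat animals, against 9.55, 9.81, 9.52 and 9.48 in high-fat/chow animals. Among chow-lineage animals it was at 9.98, 9.68, 9.90, 10.11 and 9.67 with the high-fat diet and 9.57, 9.54, 9.71, 9.31 and 9.52 with chow. The highest value of all belonged to a high-fat/high-fat animal, but another animal of that group lay as low as the chow-fed ones. Cpt2 (10878564), which regenerates acyl-CoA in the matrix, was higher by 0.29 (SE 0.073, 95% confidence interval 0.13 to 0.44, limma adjusted p = 0.335). The enzyme was at 10.36, 10.56, 10.23 and 10.06 in high-fat/high-fat animals, against 9.86, 10.14, 9.90 and 9.91 in high-fat/chow animals. Values of the chow lineage were 10.55, 10.04, 10.27, 10.41 and 10.14 with the high-fat diet and 10.18, 10.01, 10.14, 10.02 and 9.97 with chow. Its groups overlapped in both lineages, in the high-fat lineage through the lowest high-fat-fed and the highest chow-fed animal.

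Both of these genes varied from animal to animal with the slow-fibre marker genes, a relation examined after the data were seen. In whole muscle, fewer cells of a type and less RNA per cell cannot be told apart. The mean log2 level of 8 such markers (all measured, among them Myh7, Tnnt1 and Atp2a2) was 10.55, 10.82, 10.58 and 8.85 in the high-fat/high-fat animals, 9.51, 10.75, 8.88 and 9.54 in the high-fat/chow animals, and ran from 9.34 to 11.14 in the chow/high-fat and 10.15 to 11.07 in the chow/chow animals. After centring within groups, its Pearson correlation over the 18 animals was 0.84 with Cpt2 (Spearman rho 0.82) and 0.82 with Slc25a20 (rho 0.85). For Cpt2 the permutation p within groups was 0.000160 for r and 0.000340 for rho, adjusted over the 7 genes to 0.00112 and 0.00119. For Slc25a20 the permutation p was 0.000820 and 0.000280, adjusted to 0.00287 and 0.00119. Without the 2 animals farthest from the median slow-fibre level, r was 0.79 and 0.71 for the same genes. The other 5 genes gave r between 0.048 for Crat and 0.44 for Cpt1b, with adjusted permutation p of 0.366 or more. For Mlycd r was 0.20.

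**Figure D3:**
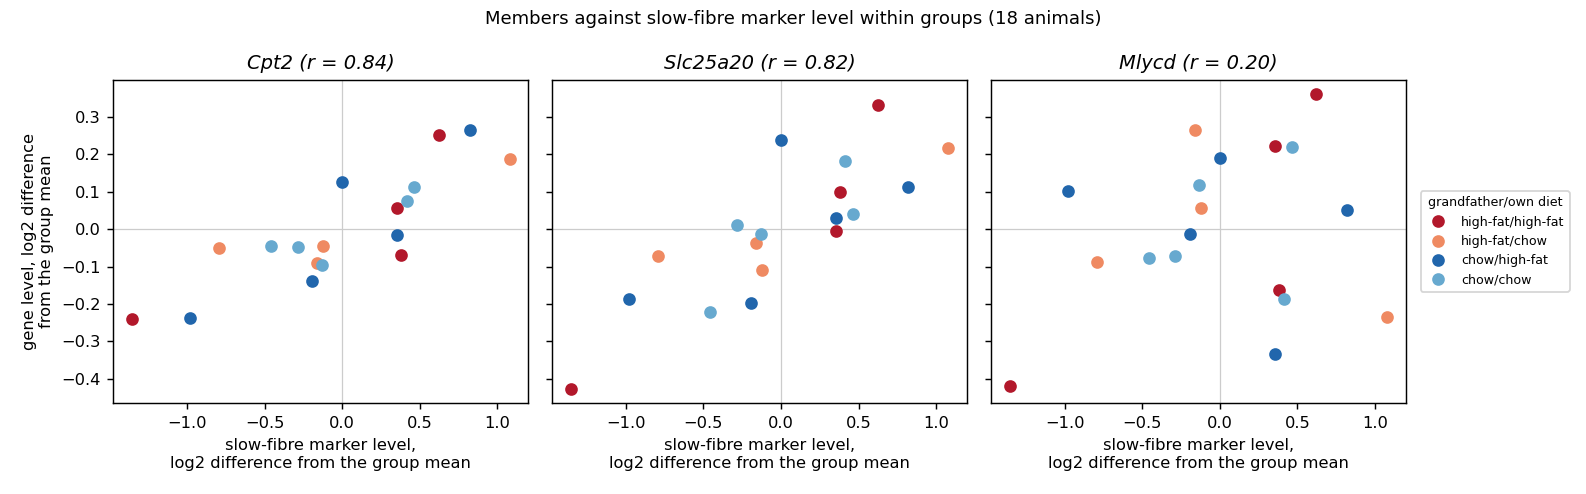
Level of Cpt2, Slc25a20 and Mlycd (vertical axis) against the mean level of 8 slow-fibre markers (horizontal axis), both as log2 differences from the mean of the animal's group, for 18 animals coloured by group. Cpt2 and Slc25a20 climb with the slow-fibre level (r = 0.84 and 0.82), while Mlycd gives r = 0.20.

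With the own high-fat diet the slow-fibre markers themselves were higher in 8 of 8 in the high-fat lineage (median difference 0.52) and lower in 8 of 8 in the chow lineage (median -0.30), and none passed. The 7 carnitine and malonyl-CoA genes were higher in both. With the slow-fibre level of each animal as a covariate, an alternative chosen after seeing the data, the own-diet difference was 0.31 for Slc25a20 and 0.26 for Cpt2, each with limma adjusted p = 0.0483, 0.48 for Mlycd, 0.19 for Cpt1b, 0.19 for Crat, 0.20 for Cpt1a and 0.17 for Acacb. In that fit Slc25a20 and Cpt2 passed and the other 5 did not, and limma called 13 of all genes (0.102%).

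Markers of other cells in the whole muscle were read from the same fit. Fibroblast markers were lower with the own high-fat diet in 6 of 6 (median -0.21), leukocyte markers in 6 of 6 (-0.18) and tendon markers in 4 of 4 measured (-0.31), none passing. Mean fibroblast levels ran 8.76 to 9.01 in high-fat/high-fat against 8.77 to 9.33 in high-fat/chow animals, and 8.42 to 9.14 in chow/high-fat against 8.83 to 9.13 in chow/chow animals. Mean leukocyte levels ran 6.85 to 6.99 in high-fat/high-fat against 6.91 to 7.18 in high-fat/chow animals, and 6.68 to 6.99 in chow/high-fat against 6.83 to 7.12 in chow/chow animals. Fat-cell markers were higher in 5 of 7 measured (median 0.030), with 5 of 7 lower in the high-fat lineage (-0.14) and 5 of 7 higher in the chow lineage (0.17), and their mean level ran 6.14 to 6.48 in high-fat/high-fat against 6.25 to 6.44 in high-fat/chow animals, and 6.23 to 6.88 in chow/high-fat against 6.17 to 6.49 in chow/chow animals. Red cell, endothelial and immediate early markers differed by medians of 0.24 (2 of 2 higher), -0.044 (2 of 3 lower) and 0.40 (4 of 5 higher). In the high-fat lineage these medians were 0.11, 0.066 and 0.55, and in the chow lineage 0.38, -0.15 and 0.064. Of 8 fast-fibre markers 5 were measured, among them Actn3 and Pvalb, and Myh4, Myh1 and Atp2a1 were not. They were lower in 5 of 5 (median -0.031), with 5 of 5 lower in the high-fat lineage (-0.066) and 3 of 5 in the chow lineage (-0.00031), none passing. Their mean levels were 12.73 to 12.80 in high-fat/high-fat, 12.78 to 12.84 in high-fat/chow, 12.68 to 12.80 in chow/high-fat and 12.74 to 12.80 in chow/chow animals. The part of these cells in the differences of the carnitine and malonyl-CoA genes was not tested.

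Some differences leaned on single animals. In the high-fat/high-fat group 1 animal (replicate 4) had the lowest level of 6 of the 7 genes, all but Crat, and another (replicate 2) had the highest level of all 7. Without replicate 4 the own-diet averages were 0.56 for Mlycd (limma adjusted p = 0.0211), 0.22 for Cpt1b (0.0412) and 0.42 for Slc25a20 (0.0472), which then passed; limma called 14 of all genes (0.11%). None of the 7 passed when any other single animal was left out. That animal also had the lowest slow-fibre level of its group. Titles also carry animal numbers, which the labels do not call pairs. Numbers 3 or fewer apart within a lineage formed 8 pairs of a high-fat-fed and a chow-fed animal, leaving 2 animals single. In all 8 pairs the high-fat-fed animal was the higher for 5 of the 7 genes, Mlycd, Acacb, Cpt1b, Crat and Cpt2, as for 107 of all genes (0.839%). It was higher in 7 of 8 for Slc25a20 and in 6 of 8 for Cpt1a. The median difference within pairs was 0.46 for Mlycd (0.11 to 0.81). Sample titles hold a code with the number 5, 7 or 9, read here as a well column, which the labels do not explain. Some full codes recur, each in both lineages, so animals of a column need not share a plate. The title of high-fat/chow replicate 2 alone carries a further number after its code, also not explained. Own-diet differences within a column are given as the mean of the differences within each lineage that had both diets there. Within column 5 (3 high-fat-fed and 5 chow-fed animals) those of Mlycd, Acacb, Cpt1b, Cpt1a, Crat, Slc25a20 and Cpt2 were 0.54, 0.16, 0.23, 0.26, 0.25, 0.47 and 0.31 in that order. Within column 7 (4 against 2) they were 0.20, 0.012, 0.094, 0.080, 0.12, -0.0023 and 0.11, and within column 9 (2 against 1, high-fat lineage alone) 0.67, 0.29, 0.22, 0.34, 0.22, 0.62 and 0.55. Slc25a20 was thus slightly negative in column 7, where high-fat/high-fat replicate 4 lies, and all other means were positive. The high-fat lineage had 1 animal of each own diet in column 7. There the high-fat-fed animal was the lower for Mlycd (8.19 against 8.44), Acacb (9.87 against 10.01), Cpt1a and Slc25a20. It was the higher for Cpt1b, Crat and Cpt2.

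Among animals of one group the 7 genes varied together to different degrees. All 21 pairs had a positive Pearson correlation after centring within groups, from 0.16 to 0.83 with a median of 0.42 (18 animals). Each was also taken without the 2 animals farthest from the median of the gene named first. Slc25a20 with Acacb, Slc25a20 with Mlycd and Cpt2 with Crat then turned negative (r = -0.24, -0.17 and -0.17). All other pairs stayed positive. The 7 values of an animal come from 1 array, so they share its RNA and normalization. Cpt2 and Slc25a20, which act in sequence, were the closest, with r = 0.83 and rho = 0.80 (permutation p = 0.000610 and 0.00116, adjusted over 21 pairs 0.0128 and 0.0244). Without the 2 animals farthest from the median of Cpt2, r was 0.83. Both also correlated with the slow-fibre level, as given above. Mlycd and Acacb followed with r = 0.77 and rho = 0.74 (permutation p = 0.00793 and 0.0165), which did not pass after adjustment (0.0833 and 0.174). With the 2 animals farthest from the median of Mlycd left out, r was 0.76. Cpt1b with Acacb gave r = 0.68 and rho = 0.55 (permutation p = 0.0215 and 0.0515, adjusted 0.151 and 0.271), and r was 0.31 without the 2 animals farthest from the median of Cpt1b, so it rests on those animals. Cpt1a with Mlycd gave r = 0.53 and rho = 0.55 (permutation p = 0.0429 and 0.0514, adjusted 0.171 and 0.271, r = 0.62 without the 2 animals farthest from the median of Cpt1a).

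**Figure D4:**
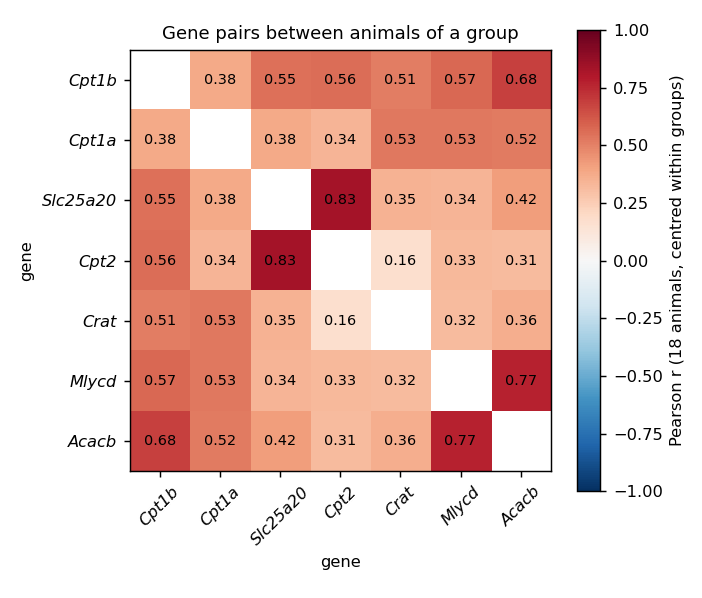
Pearson correlation of each pair of genes (rows and columns) over 18 animals after centring within the 4 groups; colour and printed number give r. All 21 pairs are positive over the 18 animals, and Cpt2 with Slc25a20 (0.83) and Mlycd with Acacb (0.77) are the highest. Some of the lower ones turn negative when outlying animals are left out, as given in the text.

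The genes of the whole array most like the mean of the 7 over the 18 animals were Nudt7, a peroxisomal coenzyme A hydrolase (r = 0.94, and 0.81 after centring within groups), Slc25a42, a mitochondrial carrier of coenzyme A (0.91 and 0.79), Ech1 (0.90 and 0.82) and Eci2 (0.90 and 0.78), isomerases used for unsaturated fatty acids, and Lipe, hormone-sensitive lipase (0.90 and 0.87). Over all genes the 95th percentile of r was 0.39. Cpt1b was most like Pxmp4, a peroxisomal membrane protein (0.90 and 0.63), Nudt7 (0.87 and 0.54) and Aqp7, a glycerol channel (0.87 and 0.68). Mlycd was most like Lipe (0.95 and 0.93), then Acacb (0.89) and Nudt7 (0.89 and 0.76). A further, dimmer probe set of Lipe gave r = -0.18 with Mlycd, so that likeness holds for 1 of its 2 probe sets. Acacb was most like Tpd52l1 (0.90 and 0.81), Mlycd, and Mafg (0.86 and 0.75). These correlations describe genes picked as the highest of 12749 on shared arrays.

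With the grandfather's high-fat diet none of the 7 genes passed the threshold. Averaged over own diets, high-fat minus chow lineage, the 7 differences ran from -0.17 to 0.072 with a median of 0.0030 (all genes -0.0027). By limma 25 of all genes passed (0.196%). At an unadjusted p under 0.05 there was 1 of 7, Acacb (background 14.6%). Cpt1b differed by 0.0030 (SE 0.040, 95% confidence interval -0.081 to 0.087, limma adjusted p = 0.983), the smallest difference of the 7. Cpt1a (0.045, SE 0.083), Slc25a20 (0.061, SE 0.090) and Cpt2 (-0.045, SE 0.073) had differences smaller than their standard errors, and Crat had 0.072 (SE 0.039, 95% confidence interval -0.0097 to 0.15, limma adjusted p = 0.405). The malonyl-CoA enzymes had the lowest values: Acacb -0.12 (SE 0.050, 95% confidence interval -0.22 to -0.012, limma adjusted p = 0.290) and Mlycd -0.17 (SE 0.10, 95% confidence interval -0.38 to 0.045, limma adjusted p = 0.456). For Acacb it was -0.14 (SE 0.071) among high-fat-fed and -0.099 (SE 0.071) among chow-fed females, and for Mlycd -0.22 (SE 0.14) among high-fat-fed and -0.11 (SE 0.14) among chow-fed females. With 1 animal left out in turn, Mlycd ran from -0.34 (without high-fat/high-fat replicate 2) to -0.079 (without high-fat/high-fat replicate 4) among high-fat-fed females, from -0.20 (without high-fat/chow replicate 1) to -0.036 (without high-fat/chow replicate 2) among chow-fed females, and from -0.23 (without high-fat/high-fat replicate 2) to -0.097 (without high-fat/high-fat replicate 4) on average. Acacb ran from -0.20 (without high-fat/high-fat replicate 2) to -0.072 (without high-fat/high-fat replicate 4) among high-fat-fed females. Without normalization between arrays the values among high-fat-fed females turned sign, to 0.078 for Acacb and 0.022 for Mlycd, beside a median of 0.18 over all genes. In group means, Mlycd averaged 8.61 ± 0.36 in high-fat/high-fat animals and 8.83 ± 0.20 in chow/high-fat animals (SD, n = 4 and 5). The lineages overlapped for all 7 genes at either own diet (background of genes that do not overlap: 4.71% among high-fat-fed and 3.27% among chow-fed females). At each own diet 0 of the 7 passed, with 0 at an unadjusted p under 0.05 (background 13.2% among high-fat-fed and 8.72% among chow-fed females; limma called 0% of genes among high-fat-fed and 0.00784% among chow-fed females). The slow-fibre markers were lower in the high-fat lineage in 8 of 8, with a median difference of -0.55. Among high-fat-fed females 5 of 8 were lower (median -0.14), and among chow-fed females 8 of 8 (-1.01); their part in these values was not tested beyond the covariate. With the slow-fibre level as a covariate Slc25a20 gave 0.19 (limma adjusted p = 0.212) and Cpt2 0.060 (0.650).

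**Figure D5:**
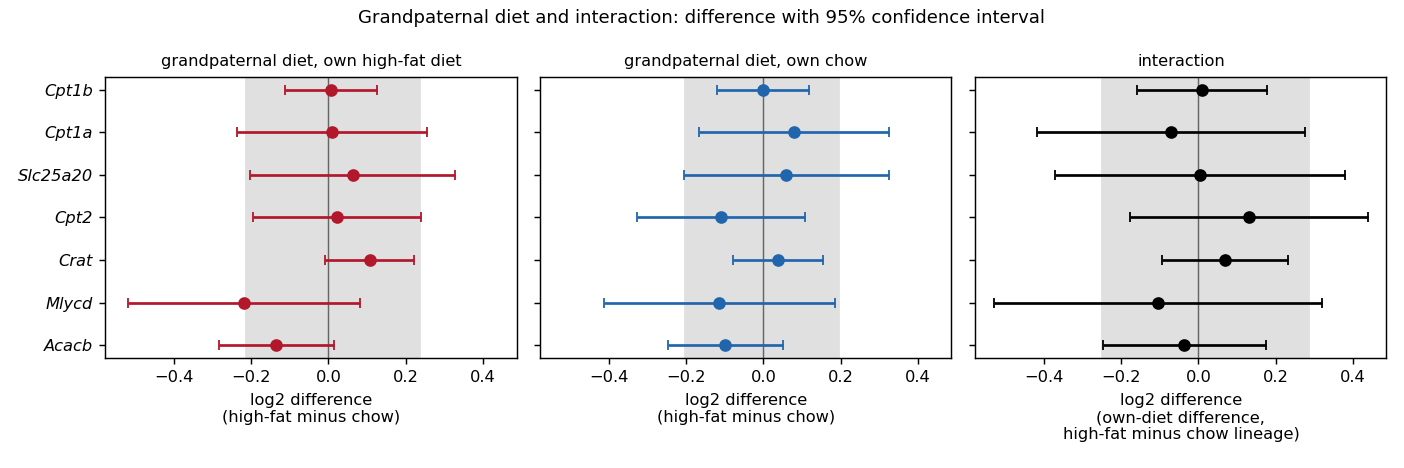
Log2 difference with its 95% confidence interval (horizontal axis) for the diet of the grandfather (high-fat minus chow) among high-fat-fed and among chow-fed females, and for the interaction (own-diet difference in the high-fat minus that in the chow lineage); the grey band spans the 5th to 95th percentile of all genes. All 21 intervals include 0.

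Whether the own diet acted differently in the 2 lineages was tested by the interaction. It ran from -0.10 for Mlycd to 0.13 for Cpt2, and 0 of the 7 passed, nor did any reach an unadjusted p under 0.05 (background 6.79%; limma called 0 of all genes, 0%, and 866 reached that unadjusted level). The interval was narrowest for Crat (-0.095 to 0.23 around 0.069) and Cpt1b (-0.16 to 0.18 around 0.0090). It was widest for Mlycd, -0.53 to 0.32 around -0.10. For every gene but Cpt1b, Crat included, the interval still held a lineage difference as large, in 1 direction or the other, as the gene's average own-diet difference. For Cpt2 it was 0.13 (SE 0.15), for Slc25a20 0.0033 (SE 0.18), for Cpt1a -0.070 (SE 0.17) and for Acacb -0.037 (SE 0.10).

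Around these genes, a wider list of 26 was read from the same fit. It covered malonyl-CoA supply, the AMP-activated kinase that phosphorylates the carboxylases, its upstream kinase complex, and other carnitine enzymes. Of 22 measured, 12 were higher and 10 lower with the own high-fat diet (median 0.0048), and 0 passed in either direction (background 0.0157%). Acaca, the cytosolic carboxylase, differed by 0.027 (SE 0.056, limma adjusted p = 0.967), beside 0.17 for Acacb. Acly, which makes cytosolic acetyl-CoA from citrate, differed by -0.069 (SE 0.080, limma adjusted p = 0.920). The genes of smallest p were Mid1ip1, known to activate acetyl-CoA carboxylase, at 0.31 (SE 0.093, limma adjusted p = 0.440), Crot, the peroxisomal carnitine octanoyltransferase, at 0.33 (SE 0.11, limma adjusted p = 0.504), and Prkag2, a regulatory subunit of the kinase, at -0.19 (SE 0.072, limma adjusted p = 0.686). Of the 10 genes of the kinase and its upstream complex (Stk11, Strada and Cab39), 6 were higher and 4 lower (median 0.0048). Prkaa2, the catalytic subunit prominent in muscle, differed by 0.0078 (SE 0.048, limma adjusted p = 0.988) and Prkag3, the regulatory subunit of fast fibres, by -0.20 (SE 0.14, limma adjusted p = 0.850). With the grandfather's high-fat diet 14 of 22 were higher and 8 lower (median 0.029, against -0.0027 over all genes), and 0 passed (background 0.196%). The share of all genes higher in that comparison is not given here, so the count of 14 stands without a background. Prkab1, Acly and Prkab2 had the smallest p there, at 0.20 (SE 0.067, limma adjusted p = 0.179), 0.18 (SE 0.080, limma adjusted p = 0.299) and 0.16 (SE 0.076, limma adjusted p = 0.333). In the same comparison Acaca differed by 0.0013 (SE 0.056), Crot by -0.15 (SE 0.11), Prkaa2 by -0.031 (SE 0.048) and Prkag3 by 0.12 (SE 0.14). Of the 4 genes without a value, Bbox1 lay below the filter, Slc22a4 shared its probe set with Slc22a5, and Fasn and Slc16a9 are not analysed here.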

How the data were processed

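RNA (200 ng per array) was hybridized to 18 Affymetrix whole-transcript arrays, per the labels' protocols. The deposited table holds a linear intensity for each of 20917 probe sets, made with Affymetrix Expression Console and PLIER per the submitters' processing notes; versions and settings are not given in the sources used here. Deposited array medians ran from 55.02 to 73.97 (0.43 log2), so log2(intensity + 16) was quantile normalized. Of the probe sets, 18197 had 1 symbol in GEO's platform table, 960 several and 1760 none; symbols were checked through Entrez identifiers against RefSeq GRCr8 (18052 matched, 0 changed). Single-symbol probe sets were kept, 1 per gene by highest mean, above the 25th percentile of all probe sets (5.26 log2), which left 12749 genes.

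A model of the 4 group means was fitted to all 18 arrays with limma 3.58.1 (R 4.3.3; lmFit, eBayes), whose moderated test was two-sided; p-values were adjusted by Benjamini-Hochberg across all genes for each of 7 comparisons, at 0.05. Pair and slow-fibre correlations used 100000 permutations within groups. Arrays allow no depth, and their number limits the precision. The code of the fit was run on simulated data with independent noise for each gene, and no result above rests on that run. No array was a copy of another in its group: the closest of 32 pairs had an SD of log2 differences of 0.19. The genes and lists were chosen with earlier results of these data known. Named are all members, fixed genes of the wider list and its 3 of smallest p, and the genes of highest correlation. Alternatives were the scaling, offset, filter, probe sets, eBayes settings, array weights, well column, neighbouring animal numbers, array median, and arrays left out.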

Additional observations from a re-analysis of the deposited data

Results flagged for a closer look

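Each of the 28 sets of values (7 genes in 4 groups of 4 or 5 animals) was examined for an animal far from the rest by Dixon's ratio at 95%, which chance passes in about 1 of 20 sets, and 2 passed. Both came from high-fat/chow replicate 2, whose title alone carries a further number after its code. Its Cpt2 level was 10.14, above 9.86 to 9.91 in the other 3 animals, and its Crat level was 11.95, below 12.00 to 12.01. This animal had the highest slow-fibre level of its group, 10.75 against 8.88 to 9.54. Without it the own-diet difference in the high-fat lineage was 0.41 for Cpt2, against 0.35 with it, and 0.22 for Crat, against 0.23 with it.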

How the results depend on the processing

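In the own-diet comparisons (average and both lineages) all 7 genes stayed higher under every alternative and with each array left out. Averages ran from 0.43 to 0.56 for Mlycd, 0.18 to 0.22 for Cpt1b and 0.16 to 0.21 for Crat, with limma adjusted p from 0.0211 to 0.299 for Mlycd, 0.0238 to 1 for Cpt1b and 0.0238 to 1 for Crat (1 for both as deposited). The number of the 7 past the threshold in that average, 0 in the fit reported, was 2 with an offset of 64 (Cpt1b and Crat), 2 with trended and robust eBayes (the same 2 genes), 1 with the well column as a block (Mlycd), 3 with neighbouring animal numbers as a random block (Mlycd, Cpt1b and Crat; correlation 0.12) and 2 with the slow-fibre level as a covariate (Cpt2 and Slc25a20). With single arrays left out it ran from 0 to 3, the 3 without high-fat/high-fat replicate 4. The count of all genes called there, 2 in the fit reported, was 0 with an offset of 1, without the 2 dimmest arrays and with the deposited array median in the model, 4 as deposited, 5 with arrays centred, 5 with trended and robust eBayes, 6 with an offset of 64, 6 with array weights, 13 with the slow-fibre level, 15 with the well column, 0 to 14 with single arrays left out and 14 with neighbouring animals. For the grandfather's diet 25 genes were called on average, but 0 under 7 alternatives (the scalings, offset 1, well column, neighbouring animals, array median and the lowest arrays left out), 247 with array weights and 304 without high-fat/chow replicate 1; at own high-fat diet 1680 were called as deposited, against 0. In the other 6 comparisons limma called 0 of the 7 under any alternative. Without normalization the median over genes moved to -0.13 for the own diet in the chow lineage and 0.11 in the high-fat lineage, 0.18 for the grandfather's diet at own high-fat diet, -0.056 at own chow, and 0.24 for the interaction, a shift that the as-deposited values include. As deposited these turned sign: Cpt2 0.019 for the grandpaternal average, Acacb 0.078 and Mlycd 0.022 for the grandpaternal difference at own high-fat diet, Crat -0.082 and Slc25a20 -0.018 for the grandpaternal difference at own chow, Acacb 0.25, Cpt1a 0.21 and Mlycd 0.20 for the interaction. With arrays centred on their medians these turned sign: Cpt1b -0.034 and Crat -0.037 for the grandpaternal average, Cpt1b -0.013 and Crat -0.028 for the grandpaternal difference at own high-fat diet, Crat -0.046 for the grandpaternal difference at own chow, Acacb 0.039 and Cpt1a 0.0020 for the interaction. With the well column as a block these turned sign: Cpt1a -0.034 and Cpt1b -0.012 for the grandpaternal average, Cpt1a -0.14, Cpt1b -0.021, Cpt2 -0.042 and Slc25a20 -0.0064 for the grandpaternal difference at own high-fat diet, Cpt1b -0.018 and Slc25a20 -0.074 for the interaction. With each array’s deposited median as covariate these turned sign: Cpt1b -0.0086 for the grandpaternal average, Cpt1b -0.022 for the grandpaternal difference at own high-fat diet, Cpt1b 0.0049 for the grandpaternal difference at own chow, Cpt1b -0.027 and Mlycd 0.012 for the interaction. Without the 2 arrays of lowest median these turned sign: Cpt1b -0.0064 for the grandpaternal average, Cpt1b -0.012 for the grandpaternal difference at own high-fat diet, Cpt1b -0.011 for the interaction. With array weights these turned sign: Cpt1b 0.0054 for the grandpaternal difference at own chow. With the slow-fibre level as a covariate these turned sign: Cpt2 0.060 for the grandpaternal average, Cpt1b 0.034 and Cpt2 0.076 for the grandpaternal difference at own chow, Cpt1b -0.022, Cpt2 -0.031 and Slc25a20 -0.20 for the interaction. With neighbouring animal numbers as a random block these turned sign: Slc25a20 -0.00012 for the interaction. With single arrays left out, values that turned sign had these ranges: Cpt1b -0.015 to 0.023 for the grandpaternal average; Cpt1b -0.028 to 0.048, Cpt1a -0.079 to 0.092, Slc25a20 -0.048 to 0.21 and Cpt2 -0.063 to 0.10 for the grandpaternal difference at own high-fat diet; Cpt1b -0.016 to 0.021, Cpt1a -0.0075 to 0.18 and Slc25a20 -0.013 to 0.11 for the grandpaternal difference at own chow; Mlycd -0.23 to 0.035, Acacb -0.10 to 0.027, Cpt1b -0.026 to 0.049, Cpt1a -0.17 to 0.017 and Slc25a20 -0.11 to 0.15 for the interaction. The cause of these turns was not tested. No paired test was run, since the labels give no replicate number shared between groups and call no animals pairs. Neighbouring animal numbers were compared within pairs and entered as the random block above.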
